A study of Danio rerio with 10 samples.

Results

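The 10 genes described here encode effectors of the integrated stress response: the transcription regulators atf4b (ENSDARG00000038141), ddit3 (ENSDARG00000059836), atf3 (ENSDARG00000007823) and nupr1a (ENSDARG00000094300), the enzymes asns (ENSDARG00000016375) and chac1 (ENSDARG00000070426), the feedback regulators trib3 (ENSDARG00000016200) and ppp1r15b (ENSDARG00000068128), and the growth signalling regulators sesn2 (ENSDARG00000070012) and ddit4 (ENSDARG00000037618). They were taken by gene name from count tables of 32105 identifiers, and each of the 10 names matched 1 identifier. Read counts came from 10 libraries of pooled, dissected zebrafish livers at 2 ages. The transgenic fish carried Tg(fabp10:nAtf6-cherry; cmlc2:GFP), allele C, in which the hepatocyte promoter of fabp10 drives nAtf6, the active nuclear part of the endoplasmic reticulum (ER) stress sensor Atf6, and a heart promoter drives GFP as a marker.

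At 5 days post fertilization (dpf), 3 nAtf6 TG pools and 3 pools of non-transgenic siblings were available, each of 25 livers, from carriers of the transgene bred to WT TAB 14 fish and sorted by the heart marker. Ribosomal RNA was removed with Ribo-Zero Gold from these samples, although their labels also name polyA RNA, and the text for the whole series describes for both ages the cross used at 78 hours post fertilization (hpf). At 78 hpf there were 2 pools against 2, each of 20 livers, in a cross to Tg(fabp10a:CAAX-EGFP), which marks hepatocyte membranes green, and polyA RNA was selected. For these 4 libraries the labels disagree. The libraries deposited under the name Natf6 are titled as siblings, those deposited under the name Sibs are titled as transgenics, and all 4 share 1 genotype entry, while the treatment text assigns the names as they were deposited. They are called Natf6-named and Sibs-named here, and every 78 hpf difference is Natf6-named minus Sibs-named, so that taking the titles instead would turn round each of its signs.

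Eif2a is a subunit of the factor that brings the initiator tRNA to the ribosome. Kinases that sense ER stress (Perk), amino acid shortage (Gcn2), heme shortage (Hri) or double-stranded RNA (Pkr) phosphorylate it, which lowers translation in general while favouring that of Atf4. Atf4 and its target Chop, the product of ddit3, then switch on genes for amino acid supply, redox balance, feedback and, under prolonged stress, cell death. Perk and Atf6 are separate sensors of the unfolded protein response, and in mammals Atf6 can also bind the promoter of the Chop gene. Read counts measure mRNA, and neither phosphorylation of Eif2a nor translation of Atf4 was measured in these libraries.

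The gene whose nuclear part the transgene carries, atf6, was examined first. Counts of atf6 can include RNA from the transgene, so they do not measure the fish's own atf6 alone. In normalised counts scaled to equal library totals (CPM, adjusted within each age by the TMM method), atf6 was at 439, 540 and 542 in nAtf6 TG livers, against 90.4, 96.8 and 77.9 in siblings (log2 fold change 2.52 ± 0.20 SE, adjusted p = 0.000322, edgeR). At 78 hpf atf6 was at 184 and 337 CPM in Natf6-named livers, against 85.3 and 45.6 CPM in Sibs-named livers (log2 fold change 1.99 ± 0.48, adjusted p = 0.689). Of 12 genes taken as the Atf6 arm, atf6 among them, all 12 were higher in both Natf6-named libraries than in both Sibs-named libraries, against 19.9% of all 14555 genes tested. These 12 also included ern1, the gene for Ire1, another sensor of the unfolded protein response, and xbp1, whose product is made active through Ire1. The libraries titled sibling were thus the ones with more atf6, and the direction of the 78 hpf comparison rests on the deposited names.

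Depth on genes was 17622825 to 22963880 counts in nAtf6 TG libraries, 20081133 to 22293405 in sibling libraries, 5910689 and 6354867 in Natf6-named libraries, and 4868321 and 5733330 in Sibs-named libraries. All 15 hepatocyte markers had counts in each group. Among 5 dpf libraries, sibling library 2 stood apart from sibling libraries 1 and 3 (chi-square per degree of freedom over genes 73.4 and 77.8, against 11.6 between libraries 1 and 3), and nAtf6 TG library 1 stood apart from the other nAtf6 TG libraries (48.5 and 53.4). Libraries 2 and 3 of nAtf6 TG differed by 2.70 per degree of freedom, which is more than sampling noise and far less than any other pair of 1 group. They were kept as 2 samples, although this value cannot show that they are independent. If they are not, every p and SD at 5 dpf that counts them as 2 is too small. A fit without nAtf6 TG library 1 takes the spread of that group from these 2 alone, so its adjusted p can be too small. Of 44 effectors, pathway genes and markers named as called at 5 dpf, 25 kept their call when any 1 library was left out and 19 lost it without at least 1, as stated beside each. The numbers of 5 dpf are not stated to mark clutches, although the 3 clutches were dissected on different days. In pooled organs, a change in the share of cells that make an RNA and a change in the RNA per cell cannot be told apart.

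At 5 dpf, 6 of the 10 effectors were higher in nAtf6 TG livers than in siblings and 0 were lower (edgeR, adjusted p under 0.05). Over all 18470 genes tested, 21.2% were called, 13.7% higher and 7.48% lower. An unadjusted p under 0.05 was reached by the same 6 effectors and by 37.2% of all genes. The 6 were atf3, nupr1a, ddit3, sesn2, asns and atf4b, with log2 fold changes of 1.08 to 2.81, and for each of them every nAtf6 TG library lay above every sibling library, which was so for 22.6% of all genes. The other 4, trib3, ppp1r15b, chac1 and ddit4, did not pass the test. The median log2 fold change of the 10 was 1.23, beside −0.04 for all genes tested and 4.21 for 12 genes of the Atf6 arm.

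**Figure D1:**
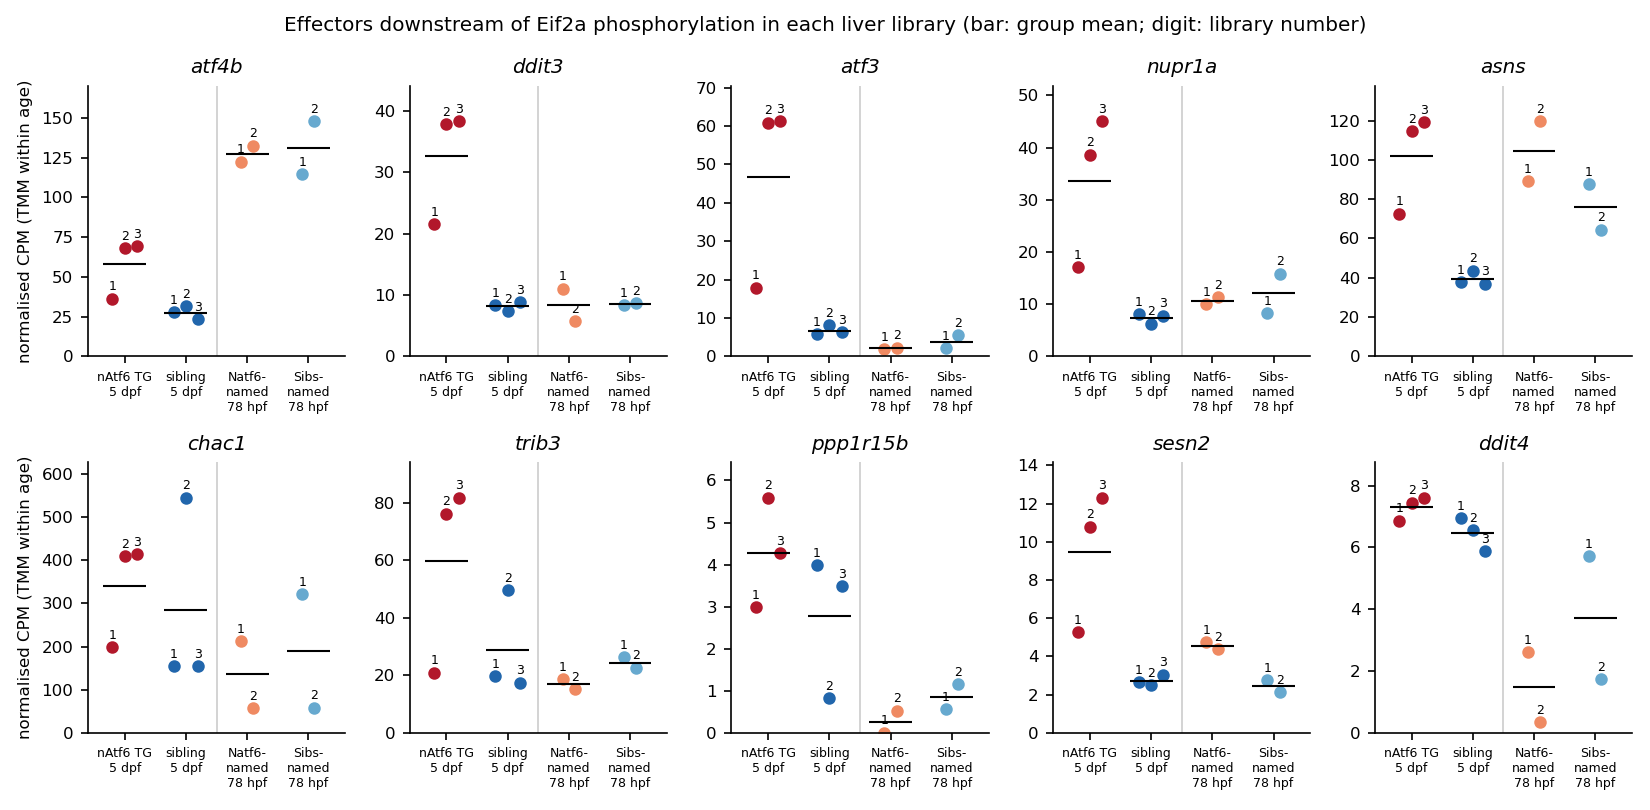
Normalised CPM (vertical axes, each starting at 0) of the 10 effectors in every library, with nAtf6 TG and sibling livers of 5 dpf left of the line and Natf6-named and Sibs-named livers of 78 hpf right of it. Points are libraries with their numbers and bars are group means. The nAtf6 TG points lie above all sibling points for atf4b, ddit3, atf3, nupr1a, asns and sesn2, and sibling library 2 is the highest 5 dpf point for chac1, at 545 CPM.

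Of the transcription regulators, atf3, nupr1a and ddit3 had the highest log2 fold changes of the 10, and atf4b a lower one. Atf3, a repressor of the bZIP family that Atf4 and Chop both induce, was at 17.9, 60.9 and 61.3 CPM in nAtf6 TG livers, against 5.73, 8.10 and 6.23 CPM in siblings. All nAtf6 TG libraries were above the siblings, but library 1 was at 0.29 of the mean of the other nAtf6 TG libraries. The log2 fold change of atf3 was 2.81 ± 0.47 (SE, adjusted p = 0.00697, edgeR), a 6.99-fold difference, and it stayed between 2.59 and 3.22 when any 1 library was left out.

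Nupr1, a small stress-induced chromatin protein, is encoded in zebrafish by nupr1a and nupr1b. Nupr1a was at 17.1, 38.6 and 45.1 CPM in nAtf6 TG livers, against 8.02, 6.27 and 7.77 CPM in siblings. Its lowest nAtf6 TG library was again library 1, still above each sibling library. The difference was 4.56-fold (log2 fold change 2.19 ± 0.35, adjusted p = 0.00632, edgeR). Its paralog nupr1b averaged 79.7 ± 38.1 CPM in nAtf6 TG livers and 165 ± 10.7 CPM in siblings (SD, n = 3 each), a log2 fold change of −1.05 ± 0.32 that missed the threshold (adjusted p = 0.0555, edgeR) but passed it with DESeq2 (0.00987), under a minimum of 10 counts per library (0.0489) and without nAtf6 TG library 1 (0.00193). How the counting treated reads that fit both copies is not given, so each of these levels is uncertain to that extent.

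Ddit3, which encodes Chop, was at 21.6, 37.9 and 38.3 CPM in nAtf6 TG livers, against 8.33, 7.39 and 8.85 CPM in siblings. The sibling values were close to each other, and the groups were separated by more than the whole sibling range. Ddit3 had the smallest adjusted p of the 10 (log2 fold change 1.99 ± 0.25, adjusted p = 0.00217, edgeR), and remained called when any of the 6 libraries was left out (adjusted p 0.000168 to 0.0185).

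Atf4b, one of the zebrafish genes for Atf4 itself, changed least among those called. It was at 36.2, 68.1 and 69.2 CPM in nAtf6 TG livers, against 27.6, 31.4 and 23.3 CPM in siblings. Library 1 of nAtf6 TG exceeded the highest sibling only slightly. The log2 fold change was 1.08 ± 0.27 (adjusted p = 0.0322, edgeR), and the call was lost when library 2 or 3 of nAtf6 TG was left out (adjusted p = 0.130 and 0.129) and when library 1 or 3 of the siblings was (0.105 and 0.116), at log2 fold changes of 0.96 to 1.07. The other gene for Atf4, atf4a, could not be matched to an identifier by name and so was not analysed.

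Asparagine synthetase, encoded by asns, is a classic Atf4 target that makes asparagine from aspartate. Asns was at 72.6, 115 and 119 CPM in nAtf6 TG livers, against 37.6, 43.5 and 37.0 CPM in siblings. The lowest nAtf6 TG library was far above the highest sibling library, and the 2.59-fold difference (log2 fold change 1.38 ± 0.23, adjusted p = 0.00691, edgeR) kept its call without any 1 library. Chac1, which encodes an enzyme that degrades glutathione and is induced through Atf4 and Chop in mammals, did not follow. It was at 199, 410.1 and 415 CPM in nAtf6 TG livers, against 155, 545 and 155 CPM in siblings, and the groups overlapped because sibling library 2 was the highest of the 6. The log2 fold change of chac1 was 0.26 ± 0.55 (adjusted p = 0.758, edgeR). Without sibling library 2 it was 1.16 ± 0.32 and called higher (adjusted p = 0.0317), while without sibling library 1 or 3 it was −0.05 or −0.04.

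Trib3 encodes a pseudokinase that is induced by Atf4 and Chop and restrains Atf4. Its levels were 20.8, 76.2 and 81.7 CPM in nAtf6 TG livers, against 19.8, 49.5 and 17.4 CPM in siblings. Library 1 of nAtf6 TG was among the siblings, and sibling library 2 was at 2.66 times the mean of the other sibling libraries. The 2.07-fold difference in trib3 was within this spread (log2 fold change 1.05 ± 0.58, adjusted p = 0.229, edgeR). Without sibling library 2, the log2 fold change was 1.696 ± 0.56 and just missed the threshold (adjusted p = 0.0534).

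Ppp1r15b encodes the constitutive partner of the phosphatase that removes phosphate from Eif2a. It was low at 2.98, 5.59 and 4.28 CPM in nAtf6 TG livers, against 3.99, 0.828 and 3.48 CPM in siblings, which is 56 to 102 counts per nAtf6 TG library and 14 to 89 counts per sibling library. Sibling library 2 was the lowest of the 6, whereas for chac1 it was the highest of the 6. The log2 fold change of 0.61 ± 0.51 did not pass the test (adjusted p = 0.417, edgeR), and was 0.21 without sibling library 2. The stress-induced partner, ppp1r15a or Gadd34, was not among the 10 and is named here because it moved the other way: it averaged 21.6 ± 3.09 CPM in nAtf6 TG livers and 35.7 ± 2.25 CPM in siblings (SD, n = 3 each) and was called lower (log2 fold change −0.73 ± 0.16, adjusted p = 0.0207, edgeR). That call was lost without any of 4 of the 6 libraries (adjusted p up to 0.127) and in 1 model of all 10 libraries (0.172).

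Sestrin 2 and Ddit4 (Redd1) both restrain the growth kinase mTORC1, and only the gene for the first was called. Sesn2 was at 5.27, 10.8 and 12.3 CPM in nAtf6 TG livers, against 2.64, 2.48 and 3.05 CPM in siblings. These levels do not overlap, and differed 3.46-fold (log2 fold change 1.79 ± 0.32, adjusted p = 0.00957, edgeR). Without sibling library 1 the log2 fold change was 1.75 and the adjusted p 0.05002, just outside the threshold. Ddit4 was at 6.87, 7.45 and 7.61 CPM in nAtf6 TG livers, against 6.94, 6.57 and 5.88 CPM in siblings, with a narrow spread in both groups. Its log2 fold change was 0.18 ± 0.15 (adjusted p = 0.431, edgeR), and whether sesn2 and ddit4 differ from each other in their response was not tested.

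**Figure D2:**
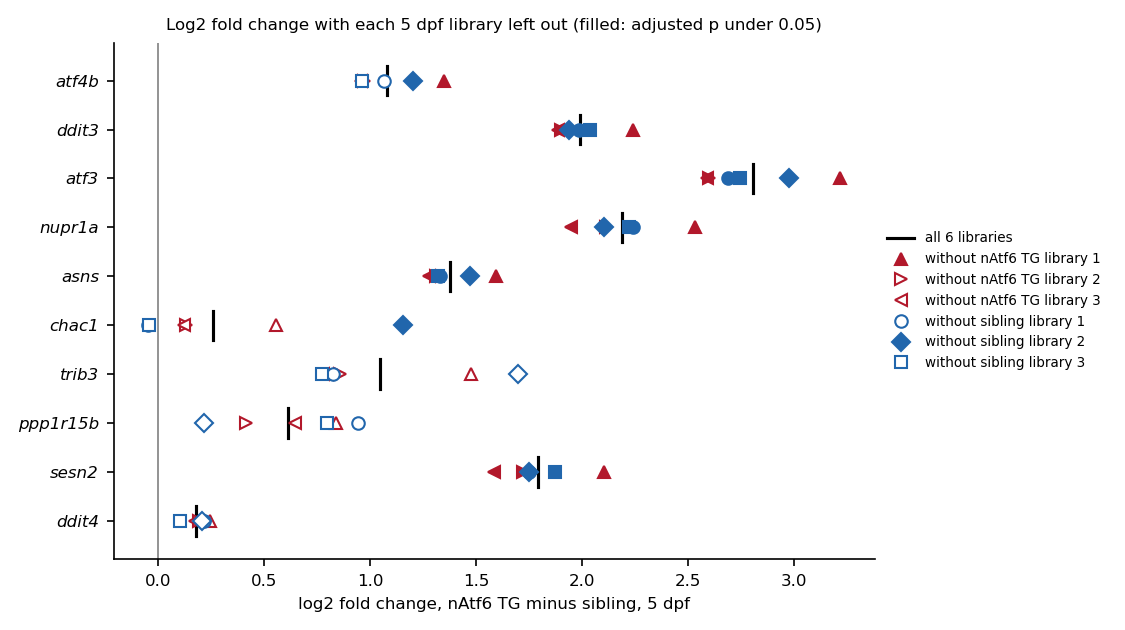
Log2 fold change (nAtf6 TG minus sibling, 5 dpf, horizontal axis) of each effector with all 6 libraries (black line) and with each library left out in turn, nAtf6 TG in red and sibling in blue. Filled symbols had an adjusted p under 0.05. The symbols for ddit3, atf3, nupr1a and asns are all filled, while chac1 spans −0.05 to 1.16 and is filled only without sibling library 2.

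Among the 3 nAtf6 TG libraries, library 1 was lowest for 10 of the 10 effectors. Its level divided by the mean of nAtf6 TG libraries 2 and 3 was 0.26 for trib3, 0.29 for atf3, 0.41 for nupr1a, 0.46 for sesn2, 0.48 for chac1, 0.53 for atf4b, 0.57 for ddit3, 0.60 for ppp1r15b, 0.62 for asns and 0.91 for ddit4. The median of the same ratio was 0.71 for the Atf6 arm and 0.99 for all genes tested. It was 0.25 for 7 macrophage and neutrophil markers, 1.04 for 15 hepatocyte markers and 1.76 for 13 exocrine pancreas genes. Sibling library 2 was likewise divided by the mean of sibling libraries 1 and 3. The median was then 1.65 for the hepatocyte markers, 0.43 for the exocrine pancreas genes and 0.55 for the macrophage and neutrophil markers. It was 1.03 for the Atf6 arm and 0.99 for all genes tested. The part of this make-up in the values of chac1, trib3 and ppp1r15b was not tested.

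Markers of other cells were compared between the groups at 5 dpf. The macrophage and neutrophil markers summed to 11.7 to 51.1 CPM in nAtf6 TG livers and 6.09 to 10.6 CPM in siblings, with library 1 the lowest nAtf6 TG library. Of these 7 markers, coro1a, marco and ptprc were called higher and lyz, a lysozyme gene, lower in nAtf6 TG livers, where 13.7% of all genes were higher. Csf1ra, lcp1 and spi1b were not called. All 7 were low in siblings, with means of 0.74 to 2.715 CPM. Without 1 library the calls of marco, ptprc and lyz were each lost in 4 of 6 cases (adjusted p up to 0.101, 0.112 and 0.209, in that order). That of lyz was also lost with no filter on low counts (0.0650) and in 1 model of all 10 libraries (0.0837). Exocrine pancreas genes were lower in 6 and higher in 0 of 13 (928.7 to 1598 CPM in nAtf6 TG livers and 1700 to 4110 CPM in siblings), intestinal markers lower in 2 of 8 tested, erythrocyte markers in 2 of 7, muscle markers in 1 of 9 and hepatocyte markers in 4 of 15, where 7.48% of all genes were lower. Their part in the changes of the effectors was not tested.

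At 78 hpf, 0 of the 9 effectors tested were called, as were 0 of 14555 genes (0%) by edgeR. At an unadjusted p under 0.05 there were 869 genes (5.97%) and none of the effectors, and DESeq2 called 188 genes and no effector. In simulated libraries with this design, 0 of 98 genes changed by 1 and 0 of 96 genes changed by 2 on the log2 scale were recovered, so a lack of calls at this age does not show a lack of change. The median log2 fold change of the 9 effectors was −0.18, beside −0.02 for all genes and 2.65 for the Atf6 arm. The groups did not overlap for sesn2 and asns, higher in Natf6-named livers (19.9% of all genes), and for trib3, lower in them (19.3% of all genes).

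Atf4b was at 123 and 133 CPM in Natf6-named livers, against 115 and 148 CPM in Sibs-named livers, with a log2 fold change of −0.04 ± 0.24. Ddit3 was at 11.0 and 5.77 CPM in Natf6-named livers, against 8.29 and 8.69 CPM in Sibs-named livers (log2 fold change −0.01 ± 0.42). For both genes the spread within a group exceeded the difference between groups, and their signs turned positive (0.11 and 0.12) when all 10 libraries were fitted together, a scaling that moved the median of all genes by 0.15. Atf3 had only 12 and 13 counts in Natf6-named livers, against 11 and 28 counts in Sibs-named livers. In CPM these were 1.84 and 2.27 in Natf6-named livers, against 2.03 and 5.41 in Sibs-named livers (log2 fold change −0.85 ± 0.65). Nupr1a was at 9.96 and 11.4 CPM in Natf6-named livers, against 8.29 and 15.8 CPM in Sibs-named livers (log2 fold change −0.18 ± 0.40). None of these 4 regulators was thus separated between the groups at this age.

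Sesn2 was at 4.75 and 4.37 CPM in Natf6-named livers, against 2.77 and 2.13 CPM in Sibs-named livers, that is 31 and 25 counts in Natf6-named livers and 15 and 11 counts in Sibs-named livers. Both Natf6-named values were higher, with a log2 fold change of 0.89 ± 0.43 that missed the threshold (adjusted p = 0.814, edgeR). Asns was at 89.2 and 119.7 CPM in Natf6-named livers, against 87.7 and 64.5 CPM in Sibs-named livers. Its groups were separated only narrowly (log2 fold change 0.46 ± 0.28, adjusted p = 0.814, edgeR). Trib3 was at 18.7 and 15.03 CPM in Natf6-named livers, against 26.2 and 22.6 CPM in Sibs-named livers (log2 fold change −0.53 ± 0.25, adjusted p = 0.814, edgeR).

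Chac1 varied more between the libraries of a group than between the groups at 78 hpf. It was at 213 and 57.7 CPM in Natf6-named livers, against 321 and 58.3 CPM in Sibs-named livers, so that library 1 of each group, titled clutch 1, was the higher one (log2 fold change −0.49 ± 1.02). Ddit4 followed the same order at lower depth, with 17 and 2 counts in Natf6-named livers against 31 and 9 counts in Sibs-named livers (log2 fold change −1.31 ± 1.098). Within each titled clutch ddit4 was lower in the Natf6-named library. Chac1 was lower there in clutch 1 but about equal in clutch 2, with 330 counts in the Natf6-named and 302 in the Sibs-named library. With the clutch as a block neither gene was called (chac1 −0.31 ± 0.28 and ddit4 −1.56 ± 0.67, adjusted p = 0.877 for both, edgeR). Ppp1r15b had 0 and 3 counts in Natf6-named livers, against 3 and 6 in Sibs-named livers, and failed the filter on low counts. A count of 0 allows up to 3 counts at a 1-sided confidence of 95%, so no fold is given for it. Exocrine pancreas genes summed to 198 and 6249 CPM in Natf6-named livers, against 66.2 and 33.6 CPM in Sibs-named livers, muscle markers to 69.6 to 657 CPM in Natf6-named livers, against 533 to 4608 CPM in Sibs-named livers, and their part in the 78 hpf values was not tested.

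**Figure D3:**
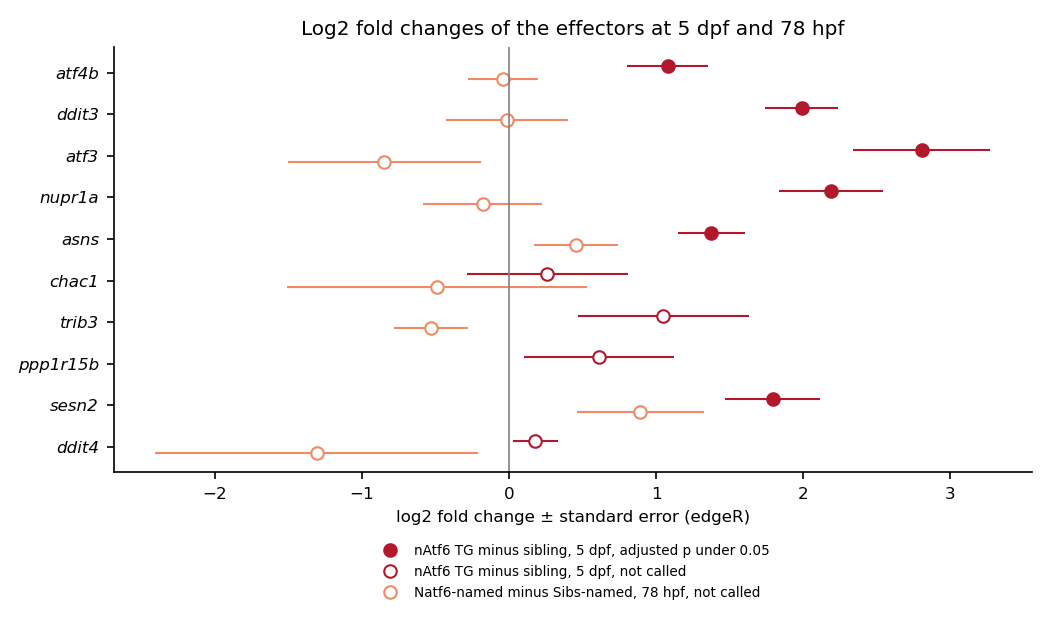
Log2 fold change ± standard error (horizontal axis) of each effector for nAtf6 TG minus sibling at 5 dpf (red) and Natf6-named minus Sibs-named at 78 hpf (orange). Filled points had an adjusted p under 0.05. Filled points are the 6 genes called at 5 dpf, from atf4b at 1.08 to atf3 at 2.81, and no 78 hpf point is filled.

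Whether the effectors responded differently at the 2 ages was tested in 1 model of all 10 libraries, as the 78 hpf difference minus the 5 dpf difference. All 10 estimates were negative, with a median of −1.41, beside 0.06 for all genes, and 0 of 10 were called by edgeR, where 14 of 20595 genes (0.068%) were. The Atf6 arm had a similar median of −1.45, with 0 of its 12 genes called, so a negative difference was not particular to the effectors. An unadjusted p under 0.05, in either direction, was reached by 9 of the 12 Atf6 arm genes, by 13.2% of all genes and by 4 effectors. The estimates furthest from 0 among those 4 were −3.51 ± 0.84 for atf3 (adjusted p = 0.145), −2.23 ± 0.56 for nupr1a (adjusted p = 0.157) and −1.89 ± 0.43 for ddit3 (adjusted p = 0.132). DESeq2 called these 3 lower (adjusted p = 0.00386, 0.0217 and 0.0126, in that order), among 564 genes, and edgeR called the same 3 without nAtf6 TG library 1 (0.0116, 0.0149 and 0.0204), among 506 genes. That edgeR fit takes the spread of nAtf6 TG from libraries 2 and 3 alone. These were much alike, so its adjusted p can be too small. With the title number as a block, edgeR called 0 genes. Age, cross, library preparation and depth differ together between these libraries and cannot be told apart, and with the titles in place of the deposited names each 78 hpf term would change sign.

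Other genes of the pathway were taken from 4 lists with 70 distinct identifiers, of which 69 could be tested at 5 dpf. Of these, 25 were called higher and 5 lower, where 13.7% of all genes were higher and 7.48% lower, and the median log2 fold change was 0.63. The upstream list of Eif2a kinases, Eif2 and Eif2b subunits and regulators had 5 of 15 called higher and 1, ppp1r15a, called lower. Of the kinases, Perk (eif2ak3) was at 142, 283 and 294 CPM in nAtf6 TG livers, against 22.2, 21.6 and 23.6 CPM in siblings, a log2 fold change of 3.41 ± 0.31 (adjusted p = 0.000613, edgeR). Gcn2 (eif2ak4) was at 30.6, 32.2 and 35.8 CPM in nAtf6 TG livers, against 14.7, 19.9 and 16.2 CPM in siblings (0.96 ± 0.17, adjusted p = 0.00880), and lost its call without nAtf6 TG library 3 (0.92, adjusted p = 0.0509). Hri (eif2ak1) was at 8.52 to 12.8 CPM in nAtf6 TG livers and 9.45 to 11.5 CPM in siblings, and Pkr (eif2ak2) at 1.88 to 2.63 CPM in nAtf6 TG livers and 1.48 to 2.46 CPM in siblings, neither of them called (adjusted p = 0.993 and 0.493). Of the 4 kinase genes, only that for Perk kept a call whichever library was left out. The changes with the largest values in this list were in the genes for ER cochaperones that bind Perk and restrain it in mammals, dnajc3b (log2 fold change 3.93 ± 0.23) and dnajc3a (3.81 ± 0.29), followed after eif2ak3 by eif2b1, a subunit of the exchange factor for Eif2 (1.23 ± 0.26). The call of eif2b1 was lost without any of 4 of the 6 libraries (adjusted p up to 0.0778).

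Of 11 bZIP partners and relatives tested at 5 dpf, 4 were called higher and 0 lower, where 13.7% of all genes were higher, and the median log2 fold change was 0.81. Atf5a, for a factor translated under the same control as Atf4 in mammals, was at 11.0, 37.97 and 36.9 CPM in nAtf6 TG livers, against 3.05, 1.89 and 2.66 CPM in siblings (log2 fold change 3.49 ± 0.49, adjusted p = 0.00355, edgeR). Of the 4 C/EBP genes tested, 3 were called at smaller sizes, cebpa at 1.09 ± 0.24, cebpg at 0.93 ± 0.24 and cebpb at 0.86 ± 0.20. Each of these 3 calls was lost when library 2 or 3 of nAtf6 TG, or library 1 or 3 of the siblings, was left out (adjusted p up to 0.0850, 0.138 and 0.114, in that order), while that of atf5a was kept. The call of cebpb was also lost with the title number as a block (adjusted p = 0.0525, edgeR). Cebpd was not called, at 86.6 ± 4.43 CPM in nAtf6 TG livers and 91.5 ± 45.1 CPM in siblings (SD, n = 3 each; log2 fold change −0.08 ± 0.32, adjusted p = 0.880, edgeR), but without sibling library 2 it was called higher (0.42, adjusted p = 0.0387).

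Genes of amino acid synthesis and transport had the highest share of calls among the 4 lists, with 11 of 22 higher, 2 lower and a median log2 fold change of 1.08, where 13.7% of all genes were higher and 7.48% lower. Of the 11 called higher, 10 were among the 14 genes for enzymes, a split made after the values were seen. Of the 8 transporter genes, slc1a5 was called higher (1.32 ± 0.28, adjusted p = 0.0177, edgeR; named after its values were seen), which was lost without any of 4 of the 6 libraries (adjusted p up to 0.0778), 1 was called lower and 6 were not called. Psat1, for the second enzyme of serine synthesis, was at 15.3, 75.2 and 73.5 CPM in nAtf6 TG livers, against 2.69, 1.24 and 2.53 CPM in siblings, a log2 fold change of 4.65 ± 0.66. Psph, for the enzyme after it, changed by 3.73 ± 0.25, pycr1a of proline synthesis by 3.28 ± 0.23 and cbsb of transsulfuration by 2.64 ± 0.35. Library 1 was the lowest nAtf6 TG library for each of these 4, as for the 10 effectors. The 2 genes called lower, named after their values were seen, were the glycine transporter gene slc6a9 (−2.51 ± 0.34) and 1 of 2 identifiers under the name of cth, an enzyme of cysteine synthesis (ENSDARG00000032206, −1.38 ± 0.41), of which the second lost its call without any of 5 of the 6 libraries (adjusted p up to 0.186), with the title number as a block (0.0875) and in 1 model of all 10 libraries (0.0637). The other cth identifier (ENSDARG00000074301) was called higher, at 1111 ± 10.3 CPM in nAtf6 TG livers and 318 ± 21.3 CPM in siblings (SD, n = 3 each).

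Of 23 other Atf4 and Chop targets tested, 5 were called higher and 3 lower, where 13.7% of all genes were higher and 7.48% lower, and the median log2 fold change was −0.10. Herpud1, for a protein of ER-associated degradation, was at 610.0, 950.5 and 932 CPM in nAtf6 TG livers, against 38.5, 33.7 and 37.6 CPM in siblings (log2 fold change 4.51 ± 0.26). Trib2, for a pseudokinase related to Trib3, was at 21.6, 63.1 and 64.3 CPM in nAtf6 TG livers, against 1.61, 2.96 and 2.45 CPM in siblings (4.41 ± 0.49, adjusted p = 0.00129, edgeR). Thus trib2 was called and trib3 was not, although a difference between them was not tested. An identifier with the symbol STC2 (ENSDARG00000056680), for the secreted glycoprotein stanniocalcin 2, changed by 2.72 ± 0.40. The other identifier of that name (ENSDARG00000102206) was not called, at 49.3 ± 24.8 CPM in nAtf6 TG livers and 61.1 ± 30.5 CPM in siblings (SD, n = 3 each; adjusted p = 0.675, edgeR). Chac2, for the constitutive relative of Chac1, was at 35.4, 15.8 and 15.1 CPM in nAtf6 TG livers, against 72.8, 74.1 and 69.9 CPM in siblings, and was called lower (−1.71 ± 0.34, adjusted p = 0.0137, edgeR). Its call was lost without nAtf6 TG library 2 or 3 or sibling library 1 (adjusted p up to 0.0672).

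For scale, the Atf6 arm had 10 of 12 genes called higher and 0 lower at 5 dpf, against 13.7% and 7.48% of all genes. Of the genes of the Ire1 branch in this list, ern1 was not called, at 9.96 to 11.0 CPM in nAtf6 TG livers and 12.9 to 14.4 CPM in siblings. Its nAtf6 TG libraries all lay below its sibling libraries, which was so for 17.2% of all genes. The groups overlapped for xbp1, at 300.5 to 423 CPM in nAtf6 TG livers and 139 to 312 CPM in siblings. The changes with the largest values were in genes for ER folding proteins, pdia4 (log2 fold change 5.62 ± 0.26), sdf2l1 (5.36 ± 0.26), manf (5.15 ± 0.26) and hyou1 (5.07 ± 0.29), and hspa5, which encodes the chaperone Bip, changed by 4.40 ± 0.38. Hspa5 was at 3915, 7702 and 8147 CPM in nAtf6 TG livers, against 372, 244 and 320.2 CPM in siblings. No effector reached the median of this list.

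At 78 hpf, 0 genes of the pathway lists were called. Of the 63 tested, both Natf6-named libraries lay above both Sibs-named libraries for 19 and below them for 6, against 19.9% and 19.3% of all genes. The median log2 fold change was 0.23 for the upstream list, −0.08 for the bZIP partners, 0.34 for the amino acid genes and 0.04 for the other targets. Perk (eif2ak3) was at 58.6 and 59.6 CPM in Natf6-named livers, against 28.8 and 25.1 CPM in Sibs-named livers (log2 fold change 1.13 ± 0.21, unadjusted p = 0.00404, adjusted p = 0.456, edgeR). Pycr1a was at 26.2 and 33.6 CPM in Natf6-named livers, against 6.27 and 6.18 CPM in Sibs-named livers, and psph at 60.2 and 60.5 CPM in Natf6-named livers, against 17.5 and 21.6 CPM in Sibs-named livers. Herpud1 was at 560.3 and 645.1 CPM in Natf6-named livers, against 63.2 and 22.2 CPM in Sibs-named livers. Dnajc3a and dnajc3b changed by 2.28 ± 0.43 and 2.115 ± 0.28 on the log2 scale. All 12 genes of the Atf6 arm were likewise higher in both Natf6-named libraries, and a part of Atf6 in these changes was not tested. For atf5a the groups overlapped, with 2.15 and 4.72 CPM in Natf6-named livers against 1.84 and 5.41 CPM in Sibs-named livers.

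**Figure D4:**
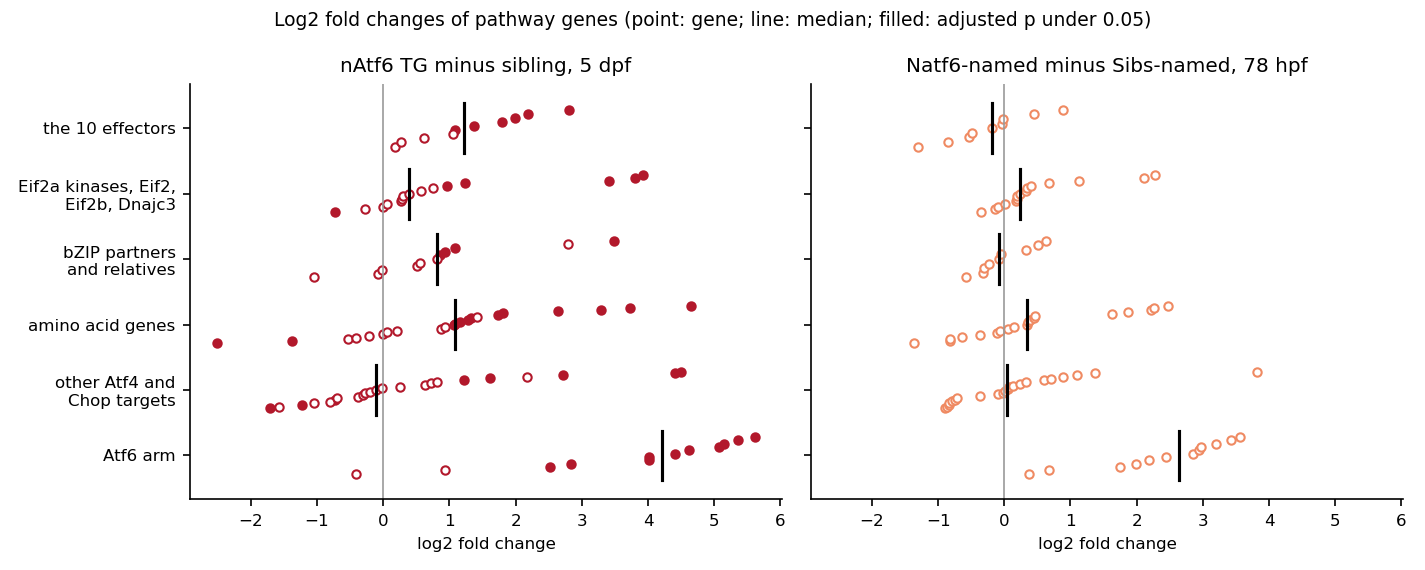
Log2 fold change (horizontal axes) of each tested gene of the 10 effectors, the 4 pathway lists and the Atf6 arm, for nAtf6 TG minus sibling at 5 dpf (left) and Natf6-named minus Sibs-named at 78 hpf (right). Points are genes, filled where the adjusted p was under 0.05, and lines are medians. The medians of the effectors are 1.23 at 5 dpf and −0.18 at 78 hpf, and those of the Atf6 arm 4.21 and 2.65.

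Across the 10 libraries, after each age was centred on its own mean, the log2 CPM of the 6 effectors called at 5 dpf ran together. Pearson's r between pairs of them was 0.76 (atf3 and sesn2) to 0.97 (atf3 and nupr1a). With atf4b, r was 0.82 for trib3, 0.29 for chac1, 0.28 for ppp1r15b and −0.07 for ddit4. Chac1 had its highest r with ddit4, at 0.67, and with trib3, at 0.66. The 6 were chosen for their difference between groups, which centring by age leaves in, so a high r among them follows in part from that choice. It was not compared with r between other genes called at 5 dpf. The points also share libraries, so these values describe the 10 libraries only. Over all genes, the pattern most like that of asns was CARS1, a tRNA synthetase gene for cysteine (r = 0.996, with a log2 fold change of 1.23 at 5 dpf). The nearest genes were IMPDH2 for atf4b (r = 0.99), si:cabz01070274.1 for ddit3 (0.99), ENSDARG00000099978 for atf3 (0.99), DBNL for sesn2 (0.99) and CLCN4 for nupr1a (0.99). Each is the highest r picked from all genes compared, so its size alone does not tie the gene to the effector.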

How the data were processed

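Raw, unnormalised counts for each Ensembl gene were deposited by the authors as 1 table for 5 dpf and 1 file per library for 78 hpf. The submitters' processing notes name the genome build GRCz10, HTSeq and DESeq2 for both ages, FastQC 0.11.5, Trimmomatic and TopHat2 2.1.0 for 5 dpf, and CASAVA and MultiQC 1.7 for 78 hpf. The strand setting and annotation release are not given in the sources used here. Special entries of the counter, which name no gene, held 35.3% to 47.4% of the counts of 78 hpf libraries and were left out.

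Tests used the quasi-likelihood method of edgeR 4.0.16 (R 4.3.3) after its default filter on low counts (TMM on the libraries of each age, Benjamini-Hochberg adjustment over all genes tested, calls at an adjusted p under 0.05). SE is the log2 fold change divided by the square root of F. Levels are TMM-normalised CPM. Alternatives were RLE scaling, DESeq2 1.42.0, other filters, the title number as a block, 1 model of 10 libraries, a fold minimum and leaving out each library. In simulated 5 dpf counts, 17 of 100 genes changed by 1 and 85 of 100 changed by 2 on the log2 scale were recovered, with 11 false calls among 18012 genes. No other genes were changed there, whereas 21.2% of genes were called in the data. The adjustment is stricter when fewer genes change, so this recovery does not describe the real 5 dpf comparison. Simulation of the difference between ages recovered 0 of 100 genes of each size.

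The 10 effectors and all lists were chosen with earlier results of these data known. Named genes were the 10 effectors, atf6 and hspa5, the 4 kinases, and genes most correlated with an effector called at 5 dpf. They also included, per pathway list, up to 4 called genes with the largest absolute log2 fold change at 5 dpf. Others lie outside this rule, and some are marked in the text. Also named after their values were seen were nupr1b, cebpd, coro1a, marco, ptprc, lyz, eif4ebp3, vegfaa and the other identifiers of STC2 and cth. Ern1 and xbp1 lie outside the rule as well. Names were matched through a symbol table naming 26269 of 32105 identifiers and through RefSeq synonyms (GRCz12tu). The share of names matched was 94.1% for the upstream list, 83.3% for bZIP partners, 84% for amino acid genes, 77.8% for other targets, 100% for the Atf6 arm and hepatocyte markers, and 69.2% to 77.8% for the markers of other cells. Identifiers that share a symbol (4301) may share reads.

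Libraries carry title numbers. At 78 hpf these are clutch numbers, so they pair the libraries by the labels, although 1 deposited name carries another number. After subtraction of group means, same-numbered libraries correlated at −0.16 at 78 hpf and at 0.08, 0.05 and −0.07 at 5 dpf, where no label ties the number to a clutch. Labels do not say that pools of a group were independent beyond their clutches, so p-values measure the spread between these pools. Intervals and floors cover counting error only, and their confidence level is 95%.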

Additional observations from a re-analysis of the deposited data

Results flagged for a closer look

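The pathway gene cebpg, which encodes a C/EBP partner of Atf4, had estimates of opposite sign at the 2 ages, of which only that of 5 dpf was called. It was at 26.5, 45.6 and 46.9 CPM in nAtf6 TG livers, against 18.6, 23.4 and 20.2 CPM in siblings, and at 20.8 and 18.5 CPM in Natf6-named livers, against 26.7 and 22.6 CPM in Sibs-named livers. At 5 dpf the call was lost without any of 4 of the 6 libraries (adjusted p up to 0.138), and at 78 hpf the log2 fold change of −0.32 ± 0.24 was not called (adjusted p = 0.818, edgeR). The groups did not overlap at either age, which was so for 22.6% of all genes in the higher direction at 5 dpf and for 19.3% in the lower direction at 78 hpf. Every 5 dpf transgenic pool thus lay above, and every Natf6-named pool below, the pools it was set against. The 78 hpf difference minus the 5 dpf difference was −1.13 ± 0.38 on the log2 scale, and this test missed the threshold (adjusted p = 0.259, edgeR). With the titles of the 78 hpf libraries in place of their deposited names, both ages would have the same direction. By those titles, however, the 78 hpf libraries with more atf6 and hspa5 RNA would be the siblings. Among the 10 effectors, atf4b, ddit3, atf3 and nupr1a also had estimates of opposite sign, with only that of 5 dpf called. Their groups overlapped at 78 hpf, and none of the 10 effectors was flagged for a closer look.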

How the results depend on the processing

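At 5 dpf, 6 effectors were called higher and 0 lower under RLE, DESeq2, no filter, a minimum of 10 counts in every library, the replicate block, 1 model of all 10 libraries and a log2 fold minimum of 1. Leaving out 1 library gave 4 to 7 called higher and 1361 to 7598 genes in all, against 3913 (5778 without nAtf6 TG library 1, 1361 without 2 and 1405 without 3, and 1709, 7598 and 1692 without sibling libraries 1, 2 and 3). The replicate block gave 3128 genes at 5 dpf, of which 2922 were also called without it, and changed the call of no effector at either age and, among the genes named by the rule, that of cebpb only (0.86, adjusted p = 0.0525), and among those named after their values were seen, those of lyz (0.0686), marco (0.0626) and 1 cth identifier (0.0875). The number at 5 dpf is not stated to mark a shared clutch, and same-numbered libraries did not all correlate best with each other. At 78 hpf, leaving out 1 library called 0 genes each time, and a lone library was then assumed to vary like the other groups. All-gene counts there were 188 with DESeq2, 8 with no filter, 1 with at least 10 counts and 117 in 1 model, and 0 with the clutch block. The crossed pairing of the numbers, chosen after seeing the data, gave 0 calls and 1293 genes at an unadjusted p under 0.05, against 611 with the numbers as titled. For the difference between ages, 14 genes became 564 with DESeq2, 134 with no filter, 77 with at least 10 counts, 0 with the replicate block and 0 to 506 without 1 library, and the effectors called lower became 3 with DESeq2 and 0 to 3 without 1 library. Estimates close to 0 changed sign: cebpd at 5 dpf was 0.030 with the replicate block, eif2ak1 at 5 dpf was 0.078 with no filter and 0.012 in 1 model, and at 78 hpf atf4b was 0.0030 and 0.11 and ddit3 0.023 and 0.12 under the same settings. Without 1 library, eif2ak1 ranged over −0.15 to 0.15, cebpd over −0.31 to 0.42 and chac1 over −0.046 to 1.16 at 5 dpf. At 78 hpf the ranges that crossed 0 were −0.14 to 0.15 for atf4b, −0.54 to 0.40 for ddit3, −1.71 to 1.28 for chac1, −1.32 to 0.017 for atf3 and −0.50 to 0.36 for nupr1a, and for the difference between ages −1.78 to 1.12 for chac1. What causes them was not tested. Depth limits ppp1r15b, ddit4, sesn2 and atf3 at 78 hpf, with 0 to 31 counts per library.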

Other observations

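A few pathway genes called at 5 dpf lay outside the rule for named genes and were picked after their values were seen. Bbc3, which encodes the cell death protein Puma, averaged 7.81 ± 2.81 CPM in nAtf6 TG livers and 2.54 ± 0.16 CPM in siblings (SD, n = 3 each), a log2 fold change of 1.62 ± 0.30 (adjusted p = 0.0105, edgeR). Pycr1b, the relative of pycr1a, averaged 68.8 ± 27.5 CPM in nAtf6 TG livers and 20.8 ± 3.02 CPM in siblings. Mthfd2 of mitochondrial folate metabolism averaged 20.8 ± 6.95 CPM in nAtf6 TG livers and 8.61 ± 2.12 CPM in siblings, and aldh18a1 of proline synthesis 84.6 ± 13.2 CPM in nAtf6 TG livers and 39.7 ± 4.24 CPM in siblings, each called higher. Without 1 library the calls were lost in 3 of 6 cases for pycr1b (adjusted p up to 0.0564), in 4 for mthfd2 (0.102) and in 1 for aldh18a1 (0.05002), while that of bbc3 was kept (0.0495). Phgdh, for the first enzyme of serine synthesis, averaged 13.5 ± 5.09 CPM in nAtf6 TG livers and 7.02 ± 2.94 CPM in siblings and was not called (log2 fold change 0.94 ± 0.40, adjusted p = 0.134, edgeR) except without nAtf6 TG library 1 (0.0411), and whether it differs from psat1 and psph in its change was not tested.

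The name eif4ebp3 matched 2 identifiers, as did vegfaa through a RefSeq synonym, and 1 of each pair was called at 5 dpf. The 2 identifiers of a pair can be separate genes. The vegfaa identifier ENSDARG00000103542 was higher (log2 fold change 1.21 ± 0.29), while ENSDARG00000034700 was at −0.80 ± 0.28 and was not called (adjusted p = 0.0784, edgeR) except by DESeq2 (0.0454) and without sibling library 2 (0.0427, at −0.40). The eif4ebp3 identifier ENSDARG00000054916, for a repressor of translation, was lower (−1.23 ± 0.30, lost in 1 model of all 10 libraries at an adjusted p of 0.133), and ENSDARG00000041607 was at −0.69 ± 0.26 (adjusted p = 0.0933, edgeR). Without 1 library the called vegfaa identifier lost its call in 4 of 6 cases (adjusted p up to 0.101) and the called eif4ebp3 identifier in 3 (adjusted p up to 0.128).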
